A study of Mus musculus with 18 samples.

Results

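The genes described here are 10 that serve creatine and calcium cycling, the energy-dissipating routes discussed beside uncoupling in thermogenic fat: Gatm, Gamt, Slc6a8, Ckb, Ckmt1, Ckmt2, Alpl, Atp2a1, Atp2a2 and Ryr2. They were taken by symbol from the 22298 genes of the deposited count tables, whose Ensembl identifiers were matched to GENCODE M21, and all 10 were found. The study sequenced polyadenylated RNA from the liver and from the epididymal (eWAT) and inguinal (iWAT) white fat depots of C57BL/6 mice at 12 weeks of age. In each tissue, 3 libraries came from Bckdha f/f; RIP-Cre mice (called KO here, as in the sample titles) and 3 from Bckdha f/f mice (WT), 18 libraries in all. Every animal carried the floxed Bckdha gene, and RIP-Cre is the usual name of a Cre driven by the rat insulin promoter, best known for recombination in beta cells and also seen in some neurons, so the tissues profiled lie outside its usual site. RIP-Cre alone, without floxed Bckdha, was not among the groups. The labels do not give the sex, nor whether the 3 libraries of a group are separate animals, so each p-value rests on the spread among libraries, which may be technical.

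Creatine is made in a pair of steps: Gatm encodes the mitochondrial amidinotransferase that joins arginine and glycine into guanidinoacetate, and Gamt encodes the methyltransferase that turns guanidinoacetate into creatine. Slc6a8 encodes the transporter that brings creatine into cells, and creatine kinases (Ckb and Ckm in the cytosol, Ckmt1 and Ckmt2 in mitochondria) pass phosphate between ATP and creatine. In thermogenic fat, phosphocreatine can be split again without useful work, a cycle in which CKB and the phosphatase encoded by Alpl have been placed. In the calcium cycle, a SERCA pump (Atp2a1, fast muscle; Atp2a2, heart and most other cells) moves calcium into the endoplasmic reticulum at the cost of ATP, and a release channel such as the ryanodine receptor encoded by Ryr2 lets it out. Several of these genes are also strongly expressed in muscle, so muscle marker genes are given beside them.

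Several libraries stood apart before any comparison. Levels are given as CPM, counts per library scaled to a common total, with TMM factors over all 18 libraries. The library labelled eWAT WT replicate 2 had a summed level of 141 CPM for 8 adipocyte markers, against 8535 to 34370.4 CPM in the other eWAT libraries, and 48943 CPM for epididymal markers. The eWAT KO replicates 1 and 3 also held epididymal transcripts, at 1293 and 1507 CPM, with smooth muscle markers summing to 2940.4 and 2821 CPM, against 294 CPM in KO replicate 2 and 269 to 1316 CPM in WT. In iWAT, WT replicate 2 had skeletal muscle markers (18 genes) at 526 CPM, against 15.5 to 56.9 CPM in the other 5 libraries, and B cell markers at 2.91 CPM, against 254 to 899 CPM. Library totals ran from 16796147 to 28039742 expected counts. The targeted gene Bckdha overlapped between genotypes in every tissue, at 37.4 to 251 CPM in WT and 78.7 to 113 CPM in KO eWAT, 89.1 to 169 and 87.5 to 178 CPM in iWAT, and 374 to 445 and 329.5 to 465 CPM in liver.

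Between genotypes, none of the 10 genes passed the threshold in any tissue, while between tissues most of those measured did, at least against liver. Genes were tested with edgeR's quasi-likelihood test at a Benjamini-Hochberg adjusted p under 0.05, after a filter on low counts that 8 of the 10 passed in eWAT, 8 in iWAT and 6 in liver. In eWAT 0 of 8 were called, where 0% of all 14657 genes were called (0 genes; 843 at an unadjusted p under 0.05, and 123 by DESeq2). In iWAT 0 of 8 were called, where again 0% of 14226 genes were (0 genes; 593 unadjusted, and 66 by DESeq2). In liver 0 of 6 were called against 0.0504% of 11915 genes. The median log2 fold change, KO over WT, was 0.32 over the members tested in eWAT against -0.02 over all genes, -0.21 against 0.01 in iWAT, and -0.19 against -0.0021 in liver. Counting genes whose 3 KO libraries all lay on the same side of the 3 WT libraries, there were 0 of 8 in eWAT (all genes, 15.0%), 1 of 8 in iWAT (9.38%) and 1 of 6 in liver (13.0%). Gatm was that gene in both tissues, below WT in iWAT and above WT in liver.

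**Figure D1:**
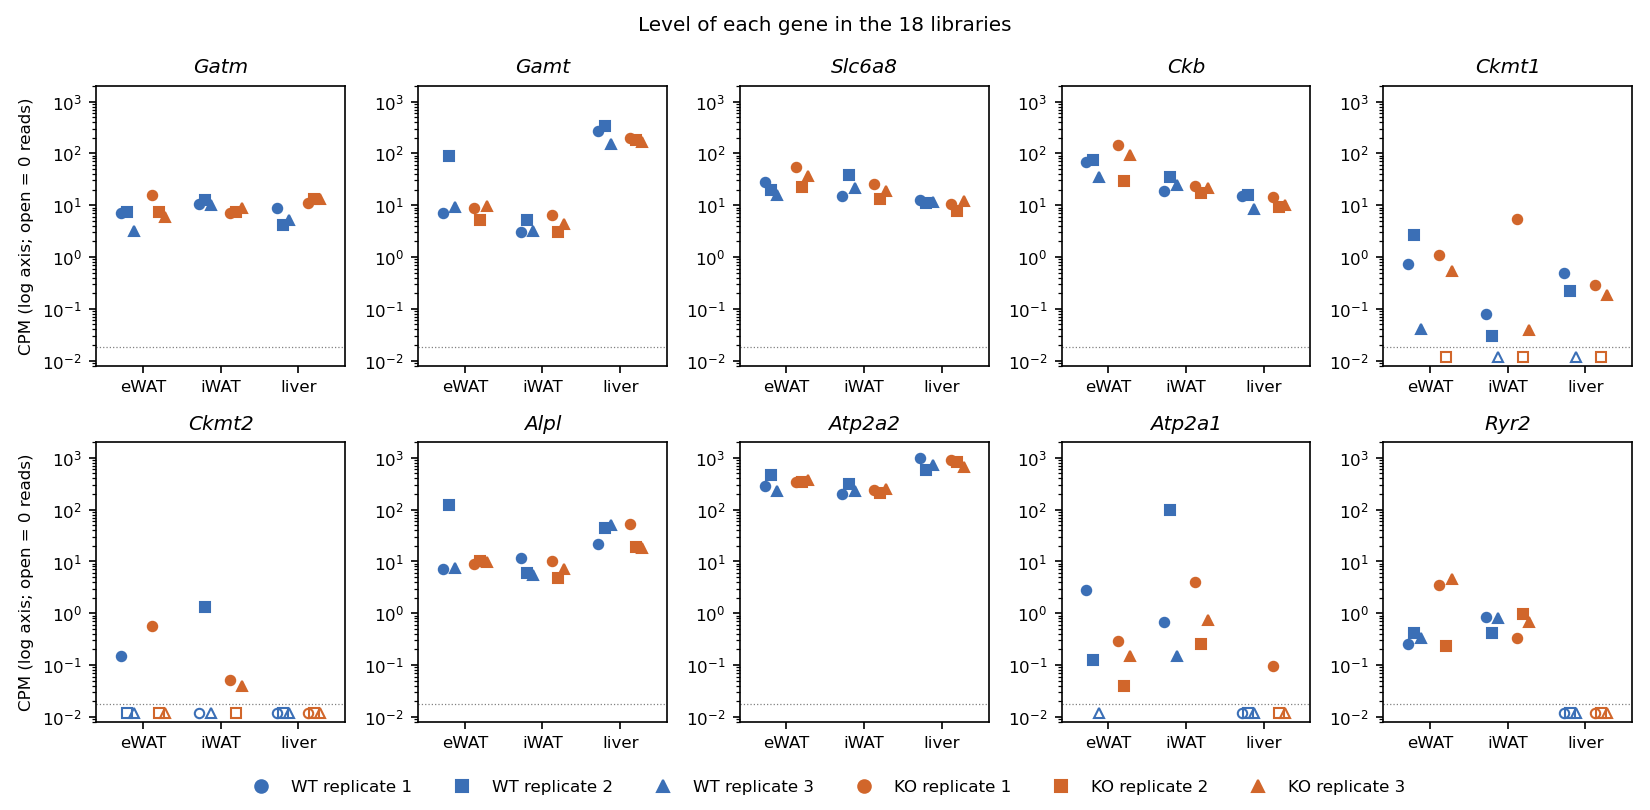
Level of each gene (CPM, TMM-scaled over 18 libraries, log axis) in eWAT, iWAT and liver, 1 point per library, WT blue and KO orange, with the symbol marking the replicate number; open symbols under the dotted line are libraries with 0 reads. Gamt lies between 151 and 338 CPM in liver and below 10 CPM in every fat library except eWAT WT replicate 2, at 87.3 CPM.

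Between tissues, both genotypes were used together with genotype as a covariate, 6 libraries a tissue. The labels do not say if same-numbered libraries of different tissues came from the same mouse. These tests and the permutation tests between tissues treated libraries as independent. From eWAT to iWAT, 1 of 9 members tested was called lower in iWAT (Ckb) and 0 higher, against 17.9% of 15455 genes (8.88% lower and 9.01% higher). Liver differed from iWAT in 7 of 8 members, 3 higher and 4 lower, against 77.5% of 14673 genes (31.7% higher and 45.8% lower). It differed from eWAT in 5 of 8, 2 higher and 3 lower, against 69.9% of 14984 genes (29.6% higher and 40.4% lower). Atp2a1 and Ryr2 against iWAT, and Ryr2 against eWAT, passed the count filter only through fat (1 and 0 reads in the 6 livers), which fixed their direction. Ckmt1 against eWAT also passed the filter only through fat (13 reads in the 6 livers) and was not called. Among the 6 members that passed it within each tissue, 3 were higher and 2 lower in liver than in iWAT (all such genes, 37.0% and 37.3%), and 2 were higher and 2 lower than in eWAT (35.9% and 30.0%). Against backgrounds of that size, these counts do not set the members apart. The scaling bears on every difference between liver and fat: TMM factors were 0.456 to 0.580 in liver libraries and 1.04 to 1.68 in fat libraries, and the median of all genes in liver minus iWAT was -0.34 with TMM scaling and -1.71 on the log2 scale with library totals, and -0.29 and -1.72 in liver minus eWAT. Of the genes called, 40.9% were higher in liver than in iWAT with TMM scaling and 12.3% with library totals (12.6% with limma on FPKM), and 42.3% against 9.86% (11.3% with FPKM) for liver over eWAT. For iWAT over eWAT the share was 50.3% with TMM scaling and 76.3% with limma on FPKM. Differences between liver and fat are therefore also given relative to the median gene.

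Gatm, the enzyme of the first step, had similar CPM in all 3 tissues and was the member whose genotypes did not overlap in liver and iWAT. In liver the WT libraries held 9.02, 4.11 and 5.15 CPM and the KO libraries 10.8, 12.9 and 13.4 CPM. All 3 KO livers were above all 3 WT livers, with means of 12.4 ± 1.38 (SD, n = 3) against 6.09 ± 2.59 CPM (SD, n = 3). The fitted log2 fold change was 1.05 ± 0.31 (SE), with an unadjusted p of 0.00712 and an adjusted p of 0.553 by edgeR, and it ran from 0.77 to 1.44 over the alternatives tried (adjusted p from 0.158 to 1). In iWAT the order was the opposite, at 10.8, 12.4 and 10.3 CPM in WT and 6.98, 7.30 and 8.69 CPM in KO. All 3 KO iWAT libraries were below all 3 WT libraries, and the log2 fold change was -0.53 ± 0.18 (SE; unadjusted p 0.0262, adjusted p 0.9998 by edgeR; -0.61 to -0.35 over the alternatives). In eWAT the genotypes overlapped, at 7.10, 7.26 and 3.12 CPM in WT and 15.4, 7.40 and 5.97 CPM in KO (log2 fold change 0.67 ± 0.51, adjusted p 0.733 by edgeR). A test of whether the genotype effect differed between the 3 tissues gave an unadjusted p of 0.0291 for Gatm and an adjusted p of 0.959 by edgeR, where 0% of 15717 genes were called (0 genes; 763 unadjusted, and 45 by DESeq2), and liver against iWAT was not tested on its own.

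Kidney and pancreas are known for high Gatm, and 4 of their marker genes summed to 5.51 to 8.70 CPM in KO liver and 5.96 to 12.6 CPM in WT liver, overlapping ranges; the kidney gene Umod was at 0 reads in all 6 livers. In iWAT the sums were 4.06 to 5.51 CPM in KO and 2.77 to 7.17 CPM in WT. Of 15 marker lists, 2 lay apart between the genotypes in iWAT in the same direction as Gatm, where 9.38% of all genes tested lay apart in either direction. The 5 macrophage markers summed to 2068 to 2321 CPM in WT and 946 to 1476 CPM in KO, and the 4 fibroblast and progenitor markers to 464 to 1675 CPM in WT and 242 to 382 CPM in KO, all with reads in every iWAT library. In liver 3 of 15 lists lay apart, in both directions, where 13.0% of all genes tested did so. Brown or beige adipocyte genes (10 listed) summed to 20.4 to 35.4 CPM in WT and 42.2 to 73.5 CPM in KO. Of them Zic1 was at 0 in all 6 livers and Ucp1 at 0 in 4. Skeletal muscle markers summed to 2.98 to 3.79 CPM in WT and 3.84 to 6.65 CPM in KO. Only 2 to 7 of these 18 had reads in a given liver, with Myh1, Myh2, Myh4 and Ckm at 0 in all 6. B cell markers summed to 5.38 to 5.95 CPM in WT and 2.99 to 4.54 CPM in KO. Whether such sums stand for the cells the lists are named after was not tested, nor was any part of those cells in the Gatm values. Between tissues the Gatm difference was 0.24 ± 0.34 on the log2 scale for iWAT minus eWAT, -0.07 ± 0.30 for liver minus iWAT and 0.27 ± 0.31 for liver minus eWAT (SE; adjusted p 0.664, 0.838 and 0.446 by edgeR). With library totals the liver differences became -1.43 and -1.20 (adjusted p 0.000735 and 0.00895 by edgeR). Relative to the median gene they were 0.27 with TMM scaling, 0.29 with library totals and -0.06 with limma on log2(FPKM + 1) against iWAT, and 0.56, 0.52 and 0.16 against eWAT.

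Gamt, the enzyme of the second step, was far higher in liver than in fat. The WT livers held 273, 338 and 151 CPM and the KO livers 197, 181 and 163 CPM. The iWAT libraries had 3.09, 5.28 and 3.22 CPM in WT and 6.42, 3.10 and 4.38 CPM in KO. In eWAT it was at 7.02, 87.3 and 9.08 CPM in WT and 8.67, 5.27 and 9.63 CPM in KO. WT replicate 2, the library with few adipocyte and many epididymal transcripts, was the only eWAT library above 10 CPM. In TMM-scaled CPM the livers lay above every fat library. In the deposited FPKM, eWAT WT replicate 2 (125) lay inside the liver range of 81.5 to 156. The log2 differences by edgeR were 5.66 ± 0.30 over iWAT (adjusted p 4.57e-09) and 3.74 ± 0.68 over eWAT (adjusted p 0.000481). The sign was the same with library totals (4.29 and 2.21). In WT libraries alone the call over eWAT was lost (2.81, adjusted p 0.0756 by edgeR). In the same CPM, Gamt stood at 1.42 to 2.96% of its mean liver level in iWAT. In eWAT it stood at 2.43 to 4.43% without WT replicate 2 (40.2% in that library). The hepatocyte gene Alb stood at 0.0579 to 0.129% of its liver mean in iWAT and at 0.0193 to 0.241% in eWAT. The 6 hepatocyte markers, Alb among them, summed to 1081 to 4738 CPM in iWAT and 194 to 9745 CPM in eWAT. Their sum in liver was 191332 to 251668 CPM. The part of liver transcripts in the Gamt levels of fat was not tested. The difference between the depots, -2.03 ± 0.74 for iWAT minus eWAT, had an adjusted p of 0.0771 by edgeR, and without eWAT WT replicate 2 it was -0.93 with an adjusted p of 0.0427. KO minus WT was -2.17 ± 1.06 in eWAT, and -0.02 without WT replicate 2, 0.30 ± 0.41 in iWAT and -0.48 ± 0.27 in liver (SE; adjusted p 0.706, 0.9998 and 0.836 by edgeR).

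The balance of the enzymes can be read within a library from FPKM, the deposited values per gene length, in which library scaling cancels. In liver, Gamt mRNA exceeded Gatm mRNA 73.3-, 198- and 70.9-fold in WT and 44.1-, 33.9- and 29.4-fold in KO. The KO livers all had lower ratios than the WT livers, but an exact two-sided permutation test of 3 against 3 cannot go below p = 0.1, which it reached (adjusted p 0.75 over the 15 genotype tests of within-library ratios). In iWAT the ratio was 0.692 to 2.22 and in eWAT 1.36 to 7.04, with 29.1 in WT replicate 2. The mean log2 ratio was 5.90 ± 1.004 in liver, 0.10 ± 0.60 in iWAT and 2.02 ± 1.63 in eWAT (SD, n = 6). Liver did not overlap with either depot (exact permutation p 0.00216 each, the smallest possible for 6 against 6; adjusted p 0.00464 over 15 tissue tests). The depots overlapped in range but differed by this test (exact p 0.00866, adjusted p 0.0144; 0.0714 without the 3 eWAT libraries with abundant epididymal transcripts).

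The promoters of this enzyme pair are shown because their mRNAs are distributed so differently over the tissues. RefSeq windows on GRCm38.p6, from 250 bases before to 50 after an annotated start, were matched by symbol for 8 of the 10 members (10 windows); Atp2a2 and Slc6a8 had none. Each window is written 5′ to 3′ on the gene's strand with the start at base 251, and capitals mark 4 motifs searched on both strands: CANNTG (held by 72.3% of all 32851 such windows), TATAA (24.9%), GGGCGG (35.7%) and CCAAT (37.4%). A match is a description of letters, not of a bound site, and overlapping matches were counted separately. Gatm lies on chromosome 2 (chr2:122594467-122611303, minus strand) and its window is chr2:122611228-122611527. Gamt lies on chromosome 10 (chr10:80258151-80261012, minus strand) and its window is chr10:80260963-80261262.
Gatm: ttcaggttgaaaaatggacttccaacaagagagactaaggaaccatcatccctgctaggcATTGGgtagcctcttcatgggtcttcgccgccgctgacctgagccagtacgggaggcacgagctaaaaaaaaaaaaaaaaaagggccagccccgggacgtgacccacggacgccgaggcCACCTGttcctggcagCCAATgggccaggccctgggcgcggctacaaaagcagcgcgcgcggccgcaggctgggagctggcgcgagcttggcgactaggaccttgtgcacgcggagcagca
Gamt: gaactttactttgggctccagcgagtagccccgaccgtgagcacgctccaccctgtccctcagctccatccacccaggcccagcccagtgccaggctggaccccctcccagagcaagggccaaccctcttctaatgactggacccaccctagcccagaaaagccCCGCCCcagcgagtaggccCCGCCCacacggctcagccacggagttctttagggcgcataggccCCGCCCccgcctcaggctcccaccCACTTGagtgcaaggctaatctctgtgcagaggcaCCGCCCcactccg
The Gatm window holds 22 CG pairs (the median window holds 7), 1 CANNTG and 2 CCAAT matches. The Gamt window holds 14 CG pairs, 4 GGGCGG matches and 1 CANNTG match. Neither has a TATAA.

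Slc6a8, the creatine transporter (chrX:73673150-73682502, plus strand), was higher in both fat depots than in liver. In eWAT it was at 27.5, 19.6 and 15.4 CPM in WT and 54.1, 22.9 and 36.6 CPM in KO. In iWAT it was at 14.8, 38.5 and 21.1 CPM in WT and 25.6, 13.1 and 18.6 CPM in KO. The livers held 12.5, 10.8 and 11.6 CPM in WT and 10.7, 7.89 and 12.0 CPM in KO. The genotypes overlapped in all 3 tissues; eWAT KO replicates 1 and 3, with high smooth muscle and epididymal markers, were among the 3 highest libraries of the series, with iWAT WT replicate 2. KO minus WT was 0.82 ± 0.37 in eWAT (unadjusted p 0.0693, adjusted p 0.706), -0.35 ± 0.44 in iWAT (adjusted p 0.9998) and -0.17 ± 0.23 in liver (adjusted p 0.913) by edgeR on the log2 scale. Liver minus iWAT was -0.99 ± 0.24 (adjusted p 0.00216) and liver minus eWAT -1.31 ± 0.26 (adjusted p 0.000862) by edgeR, or -0.65 and -1.02 relative to the median gene. In WT libraries alone the call against eWAT was lost (-0.86, adjusted p 0.0538 by edgeR). The depots did not pass the threshold against each other (-0.42 ± 0.36, adjusted p 0.441 by edgeR). Within libraries, transporter over Gatm mRNA had a mean log2 ratio of 1.49 ± 0.47 in eWAT, 0.65 ± 0.51 in iWAT and -0.06 ± 0.79 in liver (SD, n = 6).

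Ckb, the brain-type cytosolic kinase (chr12:111669361-111672338, minus strand), was the only member called between the depots. It was at 68.9, 76.1 and 35.7 CPM in WT eWAT and 148, 29.7 and 93.7 CPM in KO eWAT. The iWAT libraries had 18.9, 35.6 and 24.1 CPM in WT and 23.5, 17.1 and 21.7 CPM in KO. The livers held 15.4, 15.7 and 8.58 CPM in WT and 14.7, 9.10 and 9.997 CPM in KO. The depots overlapped at their edges: eWAT KO replicate 2 lay below iWAT WT replicate 2. Ckb was lower in iWAT than in eWAT, with a log2 difference of -1.72 ± 0.38 (SE; 3.30-fold, adjusted p 0.0159 by edgeR). The call was lost in WT libraries alone (-1.24, adjusted p 0.304), in KO libraries alone (-2.16, adjusted p 0.0616), with limma on log2(FPKM + 1) (-1.49, adjusted p 0.0524), without iWAT KO replicate 3 (-1.66, adjusted p 0.0507) and without the 3 eWAT libraries with abundant epididymal transcripts (-0.88, adjusted p 0.123), the other fits by edgeR. In tissue RNA, fewer cells of a type and less RNA per cell cannot be told apart.

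The highest eWAT levels of Ckb, in KO replicates 1 and 3 and WT replicate 2, were in the 3 libraries with the highest smooth muscle sums, in the same order (2940.4, 2821 and 1316 CPM); all 9 smooth muscle markers had reads in each. The part of these transcripts in the Ckb difference was not tested beyond leaving those libraries out. KO minus WT for Ckb was 0.54 ± 0.60 in eWAT, -0.31 ± 0.29 in iWAT and -0.21 ± 0.29 in liver (SE; adjusted p 0.803, 0.9998 and 0.913 by edgeR), and -0.81 in eWAT among the 3 libraries with few epididymal transcripts (2 WT, 1 KO). For Ckb, liver minus iWAT was -0.93 ± 0.21 (adjusted p 0.00138) and liver minus eWAT -2.54 ± 0.38 (adjusted p 0.000111) by edgeR, or -0.59 and -2.25 relative to the median gene. The Ckb promoter is shown as that of the member called between the depots (chr12:111672289-111672588).
Ckb: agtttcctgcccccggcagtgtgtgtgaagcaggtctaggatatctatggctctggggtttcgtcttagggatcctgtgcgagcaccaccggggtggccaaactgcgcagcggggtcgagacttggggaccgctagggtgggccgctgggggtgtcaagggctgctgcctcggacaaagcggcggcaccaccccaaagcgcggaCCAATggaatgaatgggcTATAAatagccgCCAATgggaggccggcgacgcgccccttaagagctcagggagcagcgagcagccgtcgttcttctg
It holds 22 CG pairs and a TATAA match at base 223 between CCAAT matches at bases 205 and 235, with no CANNTG.

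By deposited FPKM, Ckb supplied most creatine kinase mRNA in every library, though only 50.8% in iWAT WT replicate 2. As a share of the FPKM of Ckb, Ckm, Ckmt1 and Ckmt2, it made up 96.1 ± 4.27% in eWAT, 87.1 ± 20.2% in iWAT and 98.4 ± 1.38% in liver (SD, n = 6), with no difference between tissues passing the exact permutation test (adjusted p from 0.282 to 0.411). With counts per kilobase of exon in place of FPKM, the Ckb share in iWAT was 84.7 ± 24.1% (SD, n = 6). A pair of iWAT libraries stood below the others by FPKM. In iWAT WT replicate 2, with the high skeletal muscle sum, Ckb made up 50.8% and the muscle kinase Ckm 47.3%. In iWAT KO replicate 1, Ckb made up 75.2%, the mitochondrial kinases 16.7% and Ckm 8.10%. Ckm also made up 6.26% and 10.2% in eWAT KO replicates 1 and 3, where Ckm stood at 14.4 and 13.9 CPM. The 18 skeletal muscle markers, Ckm among them, summed to 60.4 and 64.1 CPM there, with 17 and 14 of them read and Myh4 at 0 in both, against 13.7 to 31.7 CPM in the other eWAT libraries.

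**Figure D2:**
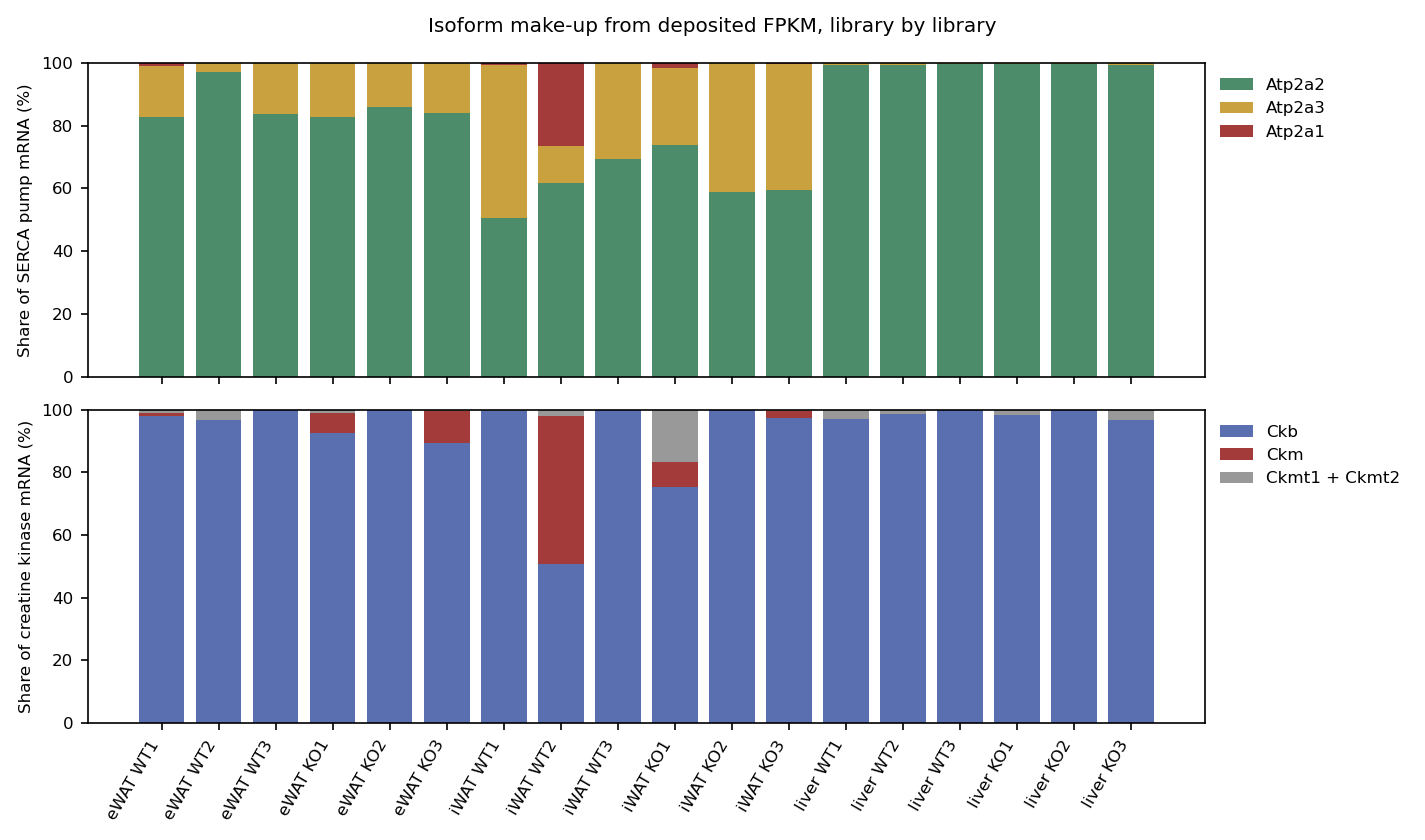
Share of SERCA pump mRNA (top: Atp2a2, Atp2a3, Atp2a1) and of creatine kinase mRNA (bottom: Ckb, Ckm, Ckmt1 with Ckmt2) in each of the 18 libraries, in percent of the summed deposited FPKM. Atp2a2 makes up over 99% in every liver and 50.4 to 74.0% in iWAT, and iWAT WT replicate 2 shows the muscle forms Ckm (47.3%) and Atp2a1 (26.5%).

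The mitochondrial kinases were near the limit of detection. Ckmt1, the form of many non-muscle tissues, was at 0.743, 2.62 and 0.0411 CPM in WT eWAT and 1.08, 0 and 0.529 CPM in KO eWAT. In iWAT it had 2, 1 and 0 reads in WT and 211, 0 and 1 in KO. The livers had 6, 2 and 0 reads in WT and 3, 0 and 2 in KO. All but 4 of its 215 iWAT reads came from KO replicate 1, at 5.38 CPM. In that library, 11 of 12 small intestine epithelium markers had reads, with a sum of 97.2 CPM, against 5.02 to 8.11 CPM in the other 5 iWAT libraries; this list was chosen after the intestinal phosphatases Akp3 and Alpi (22.1 and 21.03 CPM) were seen there. Their part in the Ckmt1 reads was not tested. Only eWAT could be tested between genotypes (-1.12 ± 1.69, adjusted p 0.852 by edgeR; 0.51 without WT replicate 2). The iWAT minus eWAT difference was -1.17 ± 2.39 (adjusted p 0.774 by edgeR), and -4.79 with an adjusted p of 0.0441 without iWAT KO replicate 1. Ckmt1 (chr2:121357714-121363737, plus strand) overlaps Strc on the other strand, and no source used here says if reads were counted by strand.

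Ckmt2, the mitochondrial kinase of striated muscle (chr13:91853387-91876885, minus strand), had too few reads for any test. It had 4, 0 and 0 reads in WT eWAT and 23, 0 and 0 in KO eWAT. In iWAT it had 0, 44 and 0 reads in WT and 2, 0 and 1 in KO. No liver library had a read. The highest counts were thus in iWAT WT replicate 2, with 18 of 18 skeletal muscle markers present, and eWAT KO replicate 1. Pooled over libraries, Ckmt2 was at least 6.00-fold higher in iWAT and 3.63-fold higher in eWAT than a liver floor of 3 reads over the group (0.0443 CPM). Without iWAT WT replicate 2 the iWAT level, 3 reads, was below that floor. Without eWAT KO replicates 1 and 3 the eWAT level, 4 reads (0.0397 CPM), was below it as well. The iWAT library with most Ucp1, the uncoupling protein of brown and beige fat (WT replicate 1, 76.8 CPM), had 0 reads of Ckmt2. The 10 brown or beige markers, Ucp1 among them, summed to 230 CPM there and to 113 to 279 CPM over iWAT. The part of muscle or of beige adipocytes in the Ckmt2 reads was not tested.

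Alpl, the tissue-nonspecific alkaline phosphatase (chr4:137741733-137796384, minus strand), was dominated in eWAT by a single library. It was at 7.25, 124 and 7.60 CPM in WT eWAT and 8.82, 10.4 and 9.67 CPM in KO eWAT. The iWAT levels were 11.8, 6.09 and 5.58 CPM in WT and 10.2, 4.79 and 7.21 CPM in KO. The livers held 21.6, 45.2 and 49.7 CPM in WT and 52.1, 19.3 and 18.1 CPM in KO. The value of 124 CPM was in eWAT WT replicate 2, beside 48943 CPM of epididymal markers, while eWAT KO replicates 1 and 3, at 1293 and 1507 CPM of those markers, did not stand out for Alpl. Liver lay above every iWAT library in CPM, but in FPKM the ranges overlapped (4.14 to 11.3 in liver, 2.83 to 6.65 in iWAT). The log2 difference was 2.17 ± 0.34 (adjusted p 8.44e-05 by edgeR), or 0.78 with library totals (adjusted p 0.0406 by edgeR). Relative to the median gene it was 2.51 with TMM scaling and 2.49 with library totals. With limma on log2(FPKM + 1) the call was lost (0.61, adjusted p 0.0614). Against eWAT the difference was 0.72 ± 0.74 (adjusted p 0.401 by edgeR) with all libraries, 2.02 (adjusted p 0.000232) without WT replicate 2, and -0.79 with library totals. The eWAT genotype difference of -2.30 ± 1.20 (adjusted p 0.706 by edgeR) became 0.39 without WT replicate 2. In iWAT and liver KO minus WT was -0.04 ± 0.43 and -0.37 ± 0.43 (SE; adjusted p 0.9998 and 0.900 by edgeR).

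Alpl is transcribed from alternative starts, and RefSeq gives a pair of windows, at chr4:137796335-137796634 and, within the gene, chr4:137766426-137766725. They are shown because gene counts cannot tell which start the eWAT WT replicate 2 and liver transcripts used.
Alpl, upstream start: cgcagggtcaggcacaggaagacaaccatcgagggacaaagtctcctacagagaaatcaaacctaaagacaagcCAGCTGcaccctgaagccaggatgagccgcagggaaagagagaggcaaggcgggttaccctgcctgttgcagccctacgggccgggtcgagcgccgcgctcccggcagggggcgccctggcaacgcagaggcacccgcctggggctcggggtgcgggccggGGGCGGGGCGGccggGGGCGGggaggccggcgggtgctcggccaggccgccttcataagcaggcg
Alpl, downstream start: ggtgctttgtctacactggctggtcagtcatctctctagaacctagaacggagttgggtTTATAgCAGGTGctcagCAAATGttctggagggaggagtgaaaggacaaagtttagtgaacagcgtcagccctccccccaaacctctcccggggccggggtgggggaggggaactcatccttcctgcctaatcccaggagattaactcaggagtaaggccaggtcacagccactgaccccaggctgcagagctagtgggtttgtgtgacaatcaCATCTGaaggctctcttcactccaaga
The upstream window holds 26 CG pairs and 3 GGGCGG matches, a pair of them overlapping at base 241. The downstream window holds 4 CG pairs, a TATAA match and 3 CANNTG matches. Among 3 other alkaline phosphatases, Alpi and Akp3 had reads almost only in iWAT KO replicate 1 (Alpi also 2 reads in KO replicate 3). Alppl2 had reads in the 3 eWAT libraries with abundant epididymal transcripts (98, 67 and 36 reads) and 1 read in iWAT KO replicate 2.

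Atp2a2, the widely expressed SERCA pump (chr5:122453513-122502225, minus strand), was the most abundant member per transcript length in iWAT and among the top 2 in eWAT and liver. It was at 284, 466 and 226 CPM in WT eWAT and 349, 335 and 379 CPM in KO eWAT. The iWAT libraries had 199, 309.9 and 231 CPM in WT and 236, 208 and 252 CPM in KO. The livers held 1003, 583 and 719 CPM in WT and 900.5, 824 and 666 CPM in KO. On this scale every liver lay above every fat library and the genotypes overlapped in each tissue. KO minus WT was 0.09 ± 0.38 in eWAT, -0.07 ± 0.23 in iWAT and 0.08 ± 0.22 in liver (SE; adjusted p 0.943, 0.9998 and 0.965 by edgeR). Liver was above iWAT by 1.72 ± 0.18 (adjusted p 1.88e-06 by edgeR), by 0.36 with library totals (adjusted p 0.0612 by edgeR) and by 0.33 with limma on log2(FPKM + 1) (adjusted p 0.0786). It was above eWAT by 1.25 ± 0.23 (adjusted p 0.000473 by edgeR), a difference that turned to -0.21 with library totals and -0.17 with limma on FPKM; in WT libraries alone the call was lost (1.20, adjusted p 0.0671 by edgeR). Relative to the median gene the values were 2.05 and 2.07 against iWAT, and 1.54 and 1.52 against eWAT, with TMM scaling and library totals. The depots differed by -0.57 ± 0.20 for iWAT minus eWAT (adjusted p 0.0724 by edgeR; 0.0224 by DESeq2, and, by edgeR, 0.0417 without iWAT WT replicate 2 and 0.0352 without eWAT WT replicate 3).

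**Figure D3:**
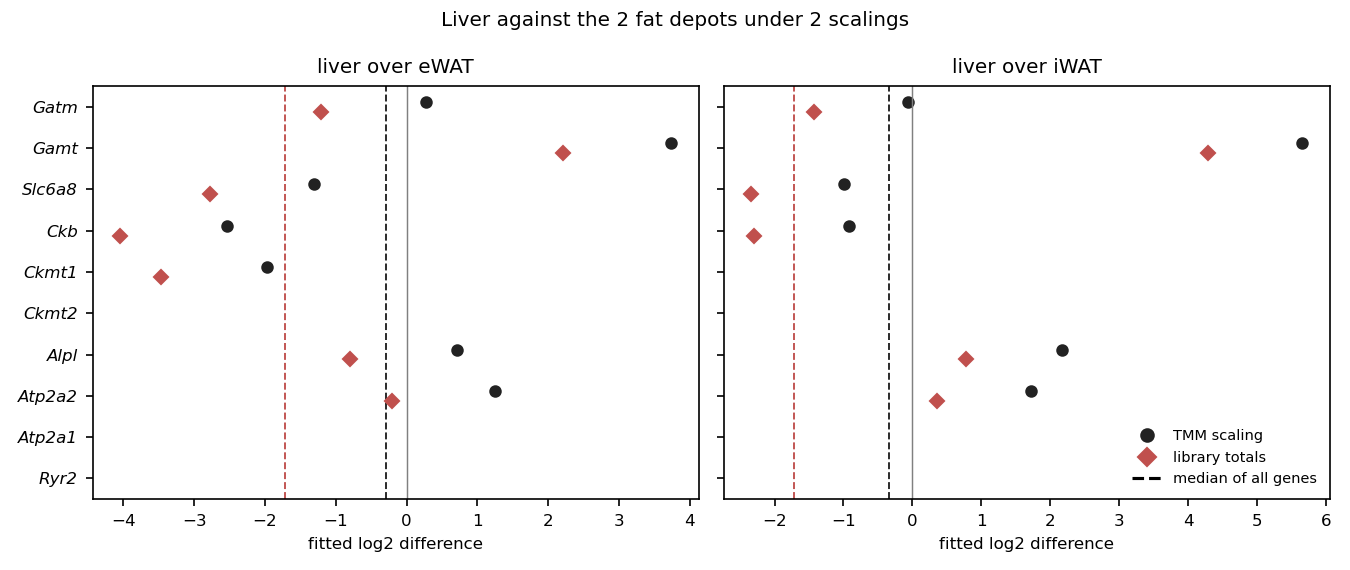
Fitted log2 difference, liver over eWAT (left) and liver over iWAT (right), for the members tested except Ryr2 and Atp2a1. TMM scaling is shown as black circles and library totals as red diamonds. Ckmt1, on the left only, had 13 reads in all livers together. Dashed lines are the median of all genes under each scaling. Each gene shifts left by about as much as the median gene, so that Atp2a2 over eWAT moves from 1.25 to -0.21 while its distance from the median stays at 1.54 and 1.52.

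The make-up of the SERCA pumps separated the tissues without any library scaling. Of the FPKM summed over Atp2a1, Atp2a2 and Atp2a3, Atp2a2 made up 99.6 ± 0.148% in liver, 86.0 ± 5.54% in eWAT and 62.3 ± 8.35% in iWAT (SD, n = 6). No library of a tissue overlapped with another tissue (exact permutation p 0.00216 for each pair, the smallest possible; adjusted p 0.00464), and the depots stayed apart without eWAT WT replicate 2 (83.8% in eWAT, adjusted p 0.00812 by the exact test). The remainder was mainly Atp2a3, the pump known from blood and endothelial cells, at 32.8 ± 13.5% in iWAT, 13.8 ± 5.42% in eWAT and 0.411 ± 0.148% in liver (SD, n = 6). The exception was iWAT WT replicate 2, with the high skeletal muscle sum, where Atp2a1 made up 26.5% and Atp2a3 11.8%. The Atp2a2 share of that library, and its gap to eWAT, therefore also depend on the muscle pump. The depots were not compared without Atp2a1 or without that library. In iWAT the Atp2a3 share followed the summed level of B cell markers in rank: 49.0% beside 899 CPM in WT replicate 1, 41.2% beside 825 CPM in KO replicate 2 and 40.2% beside 769 CPM in KO replicate 3. It was 30.6% beside 369 CPM in WT replicate 3, 24.3% beside 254 CPM in KO replicate 1 and 11.8% beside 2.91 CPM in WT replicate 2. The Atp2a1 of WT replicate 2 also lowers its Atp2a3 share. The CPM of Atp2a3 itself did not keep the full order, as KO replicate 3 lay above KO replicate 2. In eWAT, B cell markers summed to 1.39 to 4.61 CPM in all 6 libraries, so eWAT had few of these transcripts; their part in the depot difference was not tested. The Atp2a3 share differed between depots (exact permutation p 0.0130, adjusted p 0.0195), and not past the threshold without the 3 eWAT libraries with abundant epididymal transcripts (adjusted p 0.122 by the same test). Genotypes overlapped in the Atp2a2 share in each tissue (exact permutation p from 0.6 to 0.8, adjusted p 0.9).

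Atp2a1, the fast-muscle SERCA pump (chr7:126445858-126463108, minus strand; it overlaps Rabep2 on the other strand), marked 1 iWAT library. In iWAT it was at 0.664, 99.8 and 0.1498 CPM in WT and 4.05, 0.258 and 0.757 CPM in KO. In eWAT it was at 2.82, 0.127 and 0 CPM in WT and 0.295, 0.0387 and 0.151 CPM in KO. The livers had a single read, in KO replicate 1. Of 3531 iWAT reads, 3325 were in WT replicate 2, where Acta1 (skeletal actin) stood at 129 CPM and Myh4 at 99.5 CPM; the next library, KO replicate 1, also had the second highest skeletal muscle sum, 56.9 CPM. The part of muscle in these values was not tested beyond leaving that library out. KO minus WT in iWAT was -4.21 ± 2.35 (adjusted p 0.9998 by edgeR) and turned to 2.14 without WT replicate 2. The iWAT minus eWAT difference of 4.27 ± 1.64 (adjusted p 0.0891 by edgeR) became 1.5 without it. Pooled iWAT over liver reads gave a CPM ratio of 1352 (95% exact binomial counting interval 242 to 53413), and 97.2 (17.2 to 3856) without that library. The intervals cover counting error only, not the spread among libraries. Atp2a1 passed the count filter against liver only through iWAT, so these ratios describe a size and do not test a direction.

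The promoters of Atp2a1 (chr7:126463024-126463323) and Ckmt2 (chr13:91876836-91877135) are shown as those of the members whose highest counts fell in the iWAT library with the high skeletal muscle sum.
Atp2a1: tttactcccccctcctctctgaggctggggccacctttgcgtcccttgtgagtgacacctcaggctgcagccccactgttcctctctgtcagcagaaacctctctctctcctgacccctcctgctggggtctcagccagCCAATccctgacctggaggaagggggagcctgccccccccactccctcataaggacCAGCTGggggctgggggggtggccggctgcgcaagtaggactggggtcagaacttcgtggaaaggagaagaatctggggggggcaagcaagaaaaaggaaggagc
Ckmt2: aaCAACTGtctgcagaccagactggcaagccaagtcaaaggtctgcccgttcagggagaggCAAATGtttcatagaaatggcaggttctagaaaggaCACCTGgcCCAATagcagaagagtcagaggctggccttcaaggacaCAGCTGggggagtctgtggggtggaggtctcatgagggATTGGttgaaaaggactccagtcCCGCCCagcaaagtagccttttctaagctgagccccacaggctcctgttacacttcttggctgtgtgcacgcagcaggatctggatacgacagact
Both windows hold 4 CG pairs, fewer than the median window, and 68.6% of all windows hold at least as many. The downstream Alpl window and a Ckmt1 window also hold 4, and the other Ckmt1 window 10, against 18 for Ryr2 and 22 for Gatm and Ckb. The Atp2a1 window has 1 CANNTG and 1 CCAAT match, and the Ckmt2 window has 4 CANNTG, 2 CCAAT and 1 GGGCGG.

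**Figure D4:**
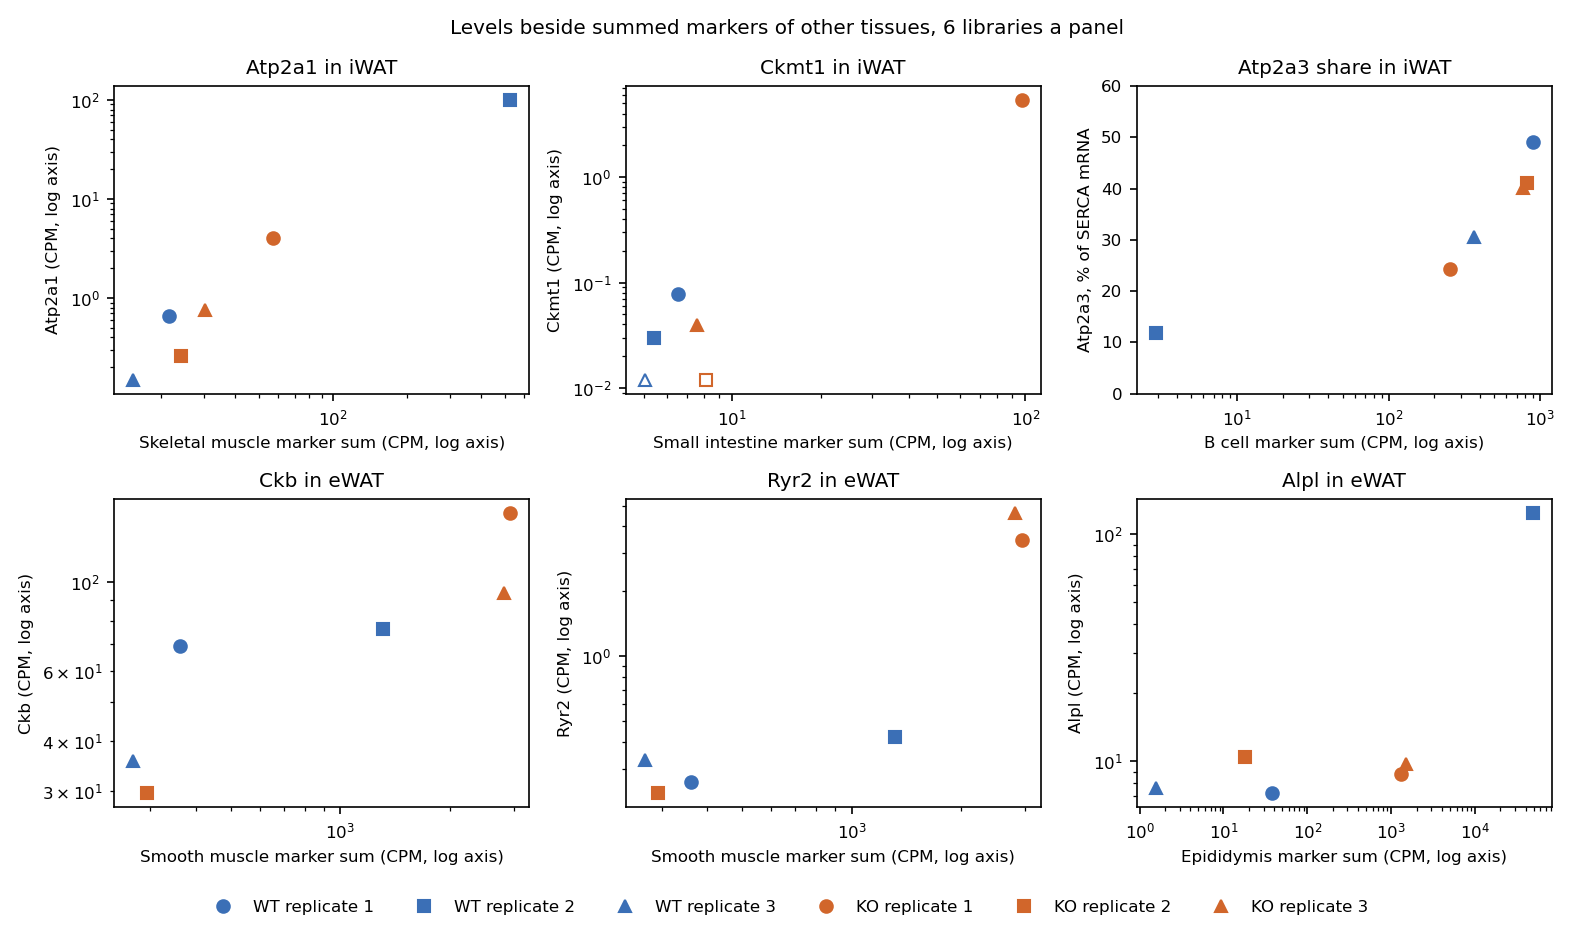
Level of a member (or Atp2a3 share) against the summed CPM of markers of another cell type or tissue, 6 libraries a panel, axes logarithmic except the share; open symbols had 0 reads. Single libraries set the extremes of Atp2a1 and Ckmt1 in iWAT and Alpl in eWAT, while Ckb and Ryr2 in eWAT are highest in KO replicates 1 and 3, where smooth muscle markers sum to 2940.4 and 2821 CPM.

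Ryr2, the ryanodine receptor known from heart and also present in smooth muscle and brain (chr13:11553102-12106945, minus strand), was low in fat and unread in liver. In eWAT it was at 0.260, 0.422 and 0.329 CPM in WT and 3.46, 0.232 and 4.61 CPM in KO, from 7, 10, 8, 141, 6 and 122 reads. In iWAT it was at 0.860, 0.420 and 0.824 CPM in WT and 0.331, 0.959 and 0.677 CPM in KO. All 6 livers had 0 reads. KO replicates 1 and 3 lay above every other library, and KO replicate 2 was the lowest of the 6 in eWAT. The log2 fold change in eWAT was 3.0 ± 1.09 (SE), with an unadjusted p of 0.0341 and an adjusted p of 0.706 by edgeR; in iWAT it was -0.10 ± 0.54 (adjusted p 0.9998 by edgeR). KO replicates 1 and 3 had 31.7 to 33.6 CPM of Jph2 and 3.93 and 5.32 CPM of Ryr3, smooth and striated muscle calcium genes, beside the high smooth muscle sums. Cardiac and slow muscle markers summed to 6.09 and 1.47 CPM there, with Myl2, Myl3 and Nppa at 0 reads in both. That sum was highest in WT replicate 2 (7.85 CPM), where Ryr2 was at 0.422 CPM, and was 0.310 to 2.18 CPM in the remaining eWAT libraries. The part of muscle transcripts in Ryr2 was not tested. Against a liver floor of 3 reads over the group, pooled Ryr2 was at least 14.5-fold higher in iWAT and at least 39.6-fold higher in eWAT, or 6.95-fold in eWAT without KO replicates 1 and 3.

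**Figure D5:**
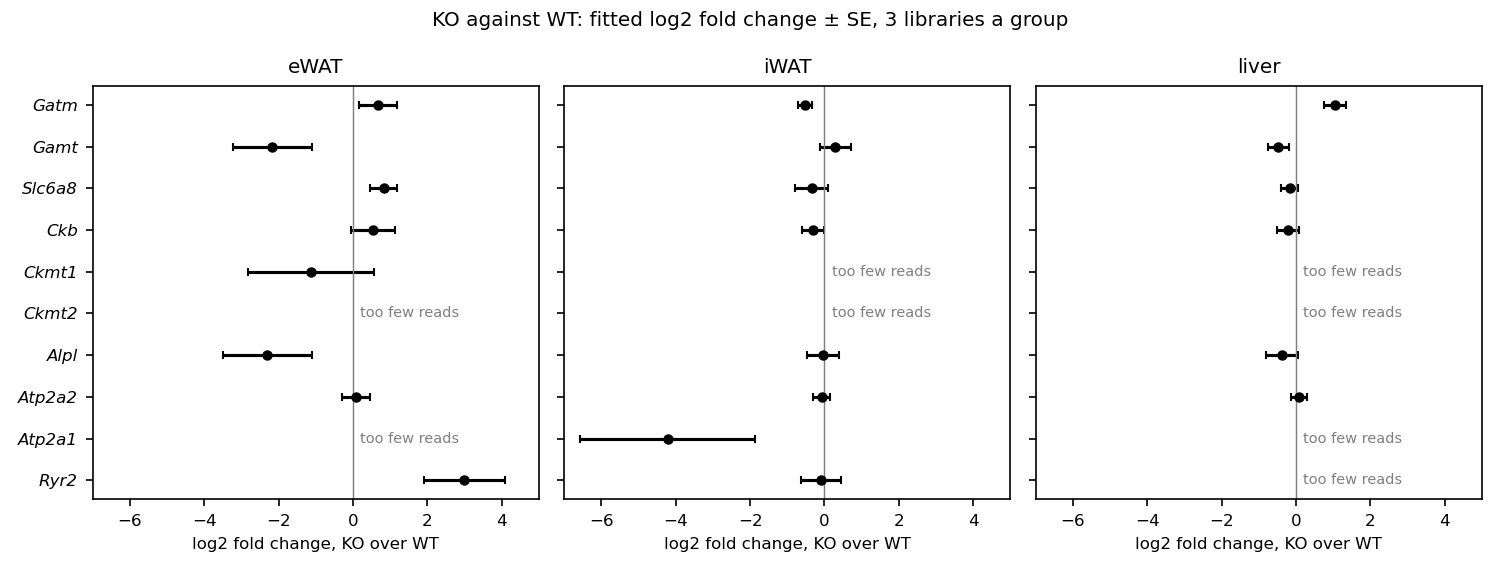
Fitted log2 fold change, KO over WT, with its standard error (bars), for each member in eWAT, iWAT and liver (3 libraries a group; edgeR); members under the count filter are marked. The 8, 8 and 6 estimates include 0 called genes, and the widest bars belong to Atp2a1 in iWAT and Ckmt1, Alpl, Ryr2 and Gamt in eWAT.

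Per transcript length, the members held different ranks in the tissues. By mean FPKM, eWAT ran from Atp2a2 (105) and Ckb (75.5) through Gamt (30.1), Alpl (17.0), Slc6a8 (12.9) and Gatm (4.75) to Ckmt1, Ryr2, Atp2a1 and Ckmt2, each below 1. The ranges of Atp2a2 (49.0 to 141) and Ckb (25.3 to 168) overlapped, and Gamt and Alpl rank so high through WT replicate 2. In iWAT the order was Atp2a2 (70.3), Ckb (21.5), Slc6a8 (8.66), Atp2a1 (6.29, through WT replicate 2), Gamt (5.85), Gatm (5.33) and Alpl (4.24). Atp2a2 (60.4 to 81.2) and Ckb (17.3 to 29.3) did not overlap there, whereas Slc6a8, Gamt, Gatm and Alpl did with their neighbours. In liver the order was Gamt (115), Atp2a2 (90.2), Alpl (7.28), Ckb (4.38), Gatm (2.10) and Slc6a8 (1.83), with Gamt and Atp2a2 overlapping in range, and the remaining members below 0.1.

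Other genes of these pathways were summarised by lists, and no list had a called gene in any comparison of the genotypes. They are counted here over the genes that passed the count filter within each tissue compared. Among 17 neighbours of creatine metabolism, 15 did so in liver and iWAT, of which 11 were called higher and 3 lower in liver (all such genes, 37.0% and 37.3%), with a median log2 difference of 2.603 against -0.02 over all such genes. The higher ones included the methyl donor enzymes Mat1a (10.45, adjusted p 9.17e-11), Gnmt (10.28, adjusted p 2.28e-10) and Ahcy (6.73, adjusted p 2.01e-10), and the arginase Arg1 (9.88, adjusted p 9.92e-11), by edgeR. Against eWAT 10 of 15 were higher and 1 lower (all such genes, 35.9% and 30.0%), with a median of 2.24 against 0.09. Between depots, Slc16a12, a creatine carrier of the monocarboxylate transporter family, was lower in iWAT (log2 difference -1.97, adjusted p 0.00701), as was Arg2 (-4.16, adjusted p 0.0327), by edgeR, the only 2 of 17 called (all such genes, 6.71% lower and 7.76% higher). Arg2 had its highest eWAT counts (1111, 721 and 551) in the 3 libraries with abundant epididymal transcripts.

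Among 16 release channels and junction proteins, 6 passed the filter within liver and within each depot. Of these 6, 3 were called lower in liver than in iWAT and 0 higher (median -0.16 against -0.02 over all such genes), and 3 lower and 0 higher than in eWAT (median -0.46 against 0.09), where 37.3% and 30.0% of all such genes were called lower. The inositol trisphosphate receptor Itpr3 (log2 differences -3.91 and -2.70, adjusted p 3.38e-07 and 1.88e-05), the immunophilin Fkbp1a (-0.56 and -0.81, adjusted p 0.000790 and 0.000408) and Asph, from whose gene junctin is made (-0.99 and -1.66, adjusted p 0.00290 and 0.000584), were lower against iWAT and eWAT by edgeR, whereas Itpr1, Itpr2 and Jph1 were not called. A further 7 genes against iWAT and 8 against eWAT, Cacna1c, Srl and Jph2 among them, passed only through fat, so their lower level in liver was fixed by the filter. Of the 4 matched genes in the list of SERCA regulators, phospholamban (Pln), the inhibitor of the Atp2a2 pump, passed the filter only through fat. It had 3 reads in the 6 livers, 4 to 68 reads in each iWAT library and 6 to 126 in each eWAT library. Sln and Mrln had too few reads for a test, and Arln, Erln and Strit1 were not matched. Among 14 other calcium genes, 13 passed in liver and iWAT, of which 6 were higher and 5 lower in liver, near the background of all such genes (37.0% and 37.3%), with a median of 0.18 against -0.02. The luminal buffer Calr was higher (2.02, adjusted p 3.09e-07) and the plasma membrane pump Atp2b4 lower (-3.18, adjusted p 1.40e-06) by edgeR.

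The 3 genes whose log2 CPM followed each member most closely over the 18 libraries, by Pearson's r among 15122 genes, mostly share the tissue pattern, and the libraries share their tissues. For Atp2a1 they were the muscle genes Tnnt3 (0.967), Tnni2 (0.946) and Myh4 (0.940). For Gamt they were Akr7a5 (0.988), Ndfip1 (0.987) and Akr1a1 (0.987). For Ckb they were Cep126 (0.968), Slc6a17 (0.959) and Elmod1 (0.954), and for Atp2a2 they were Gpld1 (0.971), Adgrl2 (0.971) and Dop1b (0.969). Alpl was followed by Obp2a (0.95), Yipf2 (0.938) and Chid1 (0.923), and Ckmt1 by Cdhr2 (0.850), Sectm1b (0.833) and Slc5a8 (0.814). Slc6a8 was followed by Adamtsl1 (0.936), Smoc2 (0.935) and Tent5b (0.927). Gatm had the loosest companions, with Slc12a8 (0.750), Socs7 (0.729) and Zfp109 (0.709). Ckmt2 and Ryr2 were too low to be ranked.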

How the data were processed

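Trizol-extracted RNA was selected on oligo(dT) beads, randomly primed and run on an Illumina NovaSeq, per the labels' protocols. Build mm10 and the tools HISAT2, RSEM, edgeR, DESeq2, StringTie 1.3.1, fastp 0.18.0 and Bowtie2 2.2.8 come from the submitters' processing notes. No source used here gives each tool's role, the annotation release or the strand setting. The authors deposited expected counts and FPKM per gene and library; 8.57% of the deposited expected counts were not whole (by 0.01 or more), and 43 of 22298 identifiers had no GENCODE M21 symbol.

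Expected counts were rounded, filtered by filterByExpr (minimum count 10, total 15), TMM-scaled and tested with edgeR 4.0.16 (glmQLFit, robust) in R 4.3.3, with Benjamini-Hochberg adjustment at 0.05. A standard error is the log2 change divided by the square root of F. Deposited FPKM served ratios within libraries (exact two-sided permutation tests) and limma 3.58.1 on log2(FPKM + 1). Other alternatives were DESeq2 1.42.0, limma-voom, other size factors, no filter, a fold of 2, a replicate block, single genotypes and left-out libraries. Counting only genes that pass the filter within each tissue was chosen after seeing the data. The procedure was also run on simulated counts, with the same dispersion for every gene and no outlying libraries. That run therefore does not show how the tests behave with outlying libraries such as those described above. All 10 members are named by rule; members and lists were chosen with earlier results of these data known.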

Additional observations from a re-analysis of the deposited data

Results flagged for a closer look

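The genotype values of Gatm lay apart in opposite directions in 2 tissues. In liver all 3 KO libraries were above all 3 WT libraries (log2 fold change 1.05), and in iWAT all 3 KO libraries were below all 3 WT libraries (-0.53). Genes with no overlap of the genotypes made up 13.0% of all genes tested in liver and 9.38% in iWAT. Neither difference passed the adjusted threshold, and the test of any difference in the genotype effect over the 3 tissues gave an unadjusted p of 0.0291 and an adjusted p of 0.959 by edgeR.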

How the results depend on the processing

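No member was called between genotypes in any tissue, or for the interaction, under the alternatives run. Counts of called genes over the whole table moved more. With DESeq2 they were 123 in eWAT, 66 in iWAT, 65 in liver, 45 for the interaction and 4398 between depots. With all 18 libraries in one fit they were 4 in eWAT and 0 in liver. The 3 eWAT libraries with few epididymal transcripts gave 25, and liver without a filter gave 11. Between depots there were 555 calls with limma-voom, 1079 with limma on FPKM, 0 in WT alone, 1010 in KO alone and 38 without the 3 epididymal-rich libraries. For the interaction limma on FPKM gave 4, and liver over eWAT in WT alone gave 5398. Leaving out 1 library gave 0 to 25 calls in liver (25 when WT replicate 2 was left out, 11 for WT replicate 3, 0 for KO replicate 1), 987 to 3306 between depots (987 without iWAT KO replicate 3) and 0 to 10 for the interaction (10 without eWAT KO replicate 2). Requiring a fold of at least 2 ended the calls of Ckb and Slc6a8 for liver minus iWAT.

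The correlations of same-numbered deviations between WT and KO were -0.299, -0.39 and -0.152 in eWAT, -0.753, -0.668 and -0.1 in iWAT, and 0.25, 0.198 and -0.282 in liver. Between tissues of the same genotype and number they ran from -0.333 to 0.245. With so few libraries a group, such correlations cannot settle whether same-numbered libraries are paired. With a replicate block the calls were 0 in eWAT, 0 in iWAT, 39 in liver, 1663 between depots, 11099 for liver over iWAT, 10029 for liver over eWAT and 0 for the interaction.

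Signs turned as follows (log2 scale), in each case for a difference that was not called unless stated; the cause was not tested. In eWAT, KO over WT among the 3 epididymal-poor libraries was -0.81 for Ckb and 0.49 for Alpl, and leaving out 1 library gave -2.07 to 0.51 for Ckmt1, -2.80 to 0.39 for Alpl and -0.064 to 0.49 for Atp2a2. In iWAT, Alpl was 0.0016 with limma-voom and 0.066 with limma on FPKM, Atp2a2 0.045 and Ryr2 0.094 on FPKM, and Atp2a1 0.47 with the replicate block. Leaving out 1 iWAT library gave -0.059 to 0.59 for Gamt, -0.66 to 0.12 for Slc6a8, -0.39 to 0.36 for Alpl, -6.05 to 2.14 for Atp2a1, -0.21 to 0.13 for Atp2a2 and -0.46 to 0.21 for Ryr2. In liver, Slc6a8 was 0.0020 on FPKM, and Atp2a2 ran from -0.073 to 0.31. For iWAT minus eWAT, KO libraries alone gave -0.37 for Gatm and 1.74 for Ckmt1, WT libraries alone 0.21 for Slc6a8 and 1.01 for Ryr2, and leaving out the 3 epididymal-rich libraries 1.25 for Ryr2. For liver minus iWAT, Gatm was 0.0186 with median-of-ratios factors and 0.0193 with DESeq2, 0.78 in KO alone (adjusted p 0.0106 by edgeR) and -0.21 to 0.17 with 1 library left out. For liver minus eWAT, limma on FPKM gave -0.80 for Gatm, -0.29 for Alpl and -0.17 for Atp2a2; library totals gave -1.20, -0.79 and -0.21; WT alone gave -0.33 for Alpl; and Ckmt1 was 0.15 without the epididymal-rich libraries. Of these, Atp2a2 over eWAT was called with all libraries, and Gatm over eWAT was called after the turn (adjusted p 0.0161 by limma on FPKM and 0.00895 by edgeR with library totals). The Ckb share of kinase mRNA, liver minus eWAT, was -0.848 percentage points without them.

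Depth limits Ckmt1, Ckmt2, Atp2a1 and Ryr2: in liver, 3 reads over the group, 0.0443 CPM, bound a level from 0 reads.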

Other observations

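Arg1, the arginase that competes for the arginine used by Gatm, stood at 731 CPM in the eWAT KO replicate 2 library, against 0.945 to 2.34 CPM in the other 5 eWAT libraries and 1.35 to 2.55 CPM in iWAT. The livers held 1131 to 2558 CPM. The same library had the highest Alb and Mat1a of eWAT, at 0.241% and 0.214% of their liver means (Mat1a 24.6 CPM, against 2.73 to 9.11 CPM in the other 5). The 6 hepatocyte markers, Alb among them, were not highest there as a sum. They summed to 3313 CPM, against 9745 and 5834 CPM in WT replicates 3 and 1 and 194 to 2720 CPM in the rest of eWAT. The KO replicate 2 library also had the highest sums of macrophage markers (1435 CPM, against 134 to 796 CPM) and of neutrophil markers (44.0 CPM, against 0.422 to 11.2 CPM). The part of these cells in the Arg1 level was not tested.

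The 3 eWAT libraries with abundant epididymal transcripts were also the 3 with reads of the placental-type phosphatase Alppl2, at 4.13, 1.65 and 1.36 CPM, and the remaining eWAT libraries had 0 reads. In iWAT KO replicate 1, the intestinal phosphatases Akp3 and Alpi were at 22.1 and 21.03 CPM, while Alpl in that library, at 10.2 CPM, lay inside the range of the other iWAT libraries (4.79 to 11.8 CPM).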
